A study of Mus musculus with 21 samples.

Results

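Spry1, Spry2, Spry4, Spred1, Il17rd, Dusp4, Dusp6, Etv4 and Etv5 are genes that cells switch on when fibroblast growth factor (FGF) signals reach them, and they were followed along the presomitic mesoderm of the mouse embryo. The 9 genes were chosen by name from the feedback inhibitors and ETS-family targets of FGF signalling, each read from its probe set with the highest mean signal among those with a single gene symbol. They are 9 of the 18193 genes with such a probe set, and all 9 were among the 12141 genes that passed the filter on low signal. The presomitic mesoderm is the paired strip of mesoderm flanking the neural tube whose front end buds off somites one after another.

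FGF ligands bind receptor tyrosine kinases, which act through Ras and the kinase ERK. Active ERK leads to transcription of the ETS factors Etv4 and Etv5, and also of its own brakes. Sprouty and Spred proteins restrain the steps around Ras and Raf, Il17rd (also called Sef) restrains the pathway at the membrane, and Dusp4 and Dusp6 remove phosphate from ERK. In the presomitic mesoderm FGF activity is known to be high next to the tailbud and to fade toward the forming somites, and several of these genes oscillate there with the segmentation clock in mouse.

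The 21 Affymetrix arrays held 7 parts of the tissue, numbered 1 to 7, with 3 biological replicates each. All groups came from untreated embryos of the outbred CD-1 background, labelled stage E8.5 (9.0 days post-coitum in the dissection protocol), with no mutant or treated group. A 1-minute bath in 2 mg/ml pancreatin preceded the removal of neighbouring layers with needles. Left and right sides of an embryo both served as material, so some arrays share an embryo, and the labels do not say which, nor at which end numbering began. The p-values below therefore measure only the spread between these arrays. Mean signal per array lay between 151 and 154, which is a property of the authors' scaling and not a depth, and precision rests on how many arrays there are.

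Tailbud markers (Cdx2, Nkx1-2, Wnt3a, Fgf8, Cyp26a1) summed to a signal of 53.1 to 67.2 in part 7, against 1134 to 4773 in part 1, and all 5 fell along the parts. Paraxial mesoderm markers (Tbx6, Msgn1, Meox1, Tcf15, Pax3, Uncx, Foxc2) summed to 6670 to 9119 in part 7, against 947 to 1078 in part 1, with 2 genes falling and 5 rising. Markers of other tissues were also present. Blood markers summed to 6544 to 12353 in part 7 against 10738 to 18245 in part 1, with 4 of 6 tested genes falling. Neural tube markers summed to 147 to 265 in part 7 against 776 to 1234 in part 1, with 1 of 6 falling and 1 rising. Gut endoderm markers summed to 79.4 to 260.2 in part 7 and 255 to 461 in part 1, with 2 of 7 falling and Foxa2 below the filter. Endothelial markers lay between 25.2 and 1004 over all arrays with none of 6 called and Pecam1 below the filter. Neural crest markers had higher sums in part 7, at 201 to 279, against 111 to 207 in part 1, with some overlap and with neither of the 2 tested genes called. Lateral and intermediate mesoderm markers summed to 74.4 to 162 in part 7 and 90.3 to 173 in part 1, and were highest in part 2, replicate 3, at 374, with 1 of 5 falling and 1 rising. Surface ectoderm and notochord markers summed to at most 109 and 54.8 in any array. The part of these tissues in the results below was not tested. In these bulk samples fewer cells of a type and less RNA per cell cannot be told apart.

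The stretches below, read from RefSeq on GRCm38.p6, lie directly before the annotated start of 5 of the genes and outside the gene itself. They are shown because Etv4 and Etv5 belong to the ETS family, whose members bind a core of GGAA, and capitals mark GGAA or its reverse complement TTCC. Entries were found for 6 of the 9 genes, and none was used for Spry4, Dusp4 or Etv4. The Il17rd entry's 250-base window runs into the gene, so only its first 213 bases, which lie outside, are printed.
Spry1, chr3:37639697-37639946, plus strand: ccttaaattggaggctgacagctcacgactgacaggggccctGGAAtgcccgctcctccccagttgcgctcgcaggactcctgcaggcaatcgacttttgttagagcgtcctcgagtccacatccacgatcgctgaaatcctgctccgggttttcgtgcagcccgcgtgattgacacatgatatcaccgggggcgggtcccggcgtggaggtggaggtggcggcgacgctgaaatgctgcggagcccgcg
Spry2, chr14:105896820-105897069, minus strand: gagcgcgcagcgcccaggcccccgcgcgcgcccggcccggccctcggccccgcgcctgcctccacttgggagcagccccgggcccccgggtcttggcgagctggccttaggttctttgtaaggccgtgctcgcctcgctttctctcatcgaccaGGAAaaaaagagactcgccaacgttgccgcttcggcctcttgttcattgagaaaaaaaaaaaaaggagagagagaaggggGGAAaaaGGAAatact
Il17rd, chr14:27038751-27038963, plus strand: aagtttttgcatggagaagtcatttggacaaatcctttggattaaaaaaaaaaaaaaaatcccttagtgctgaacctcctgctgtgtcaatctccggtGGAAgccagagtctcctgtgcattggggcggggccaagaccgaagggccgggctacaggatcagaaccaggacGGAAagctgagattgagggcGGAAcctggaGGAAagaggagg
Dusp6, chr10:99262981-99263230, plus strand: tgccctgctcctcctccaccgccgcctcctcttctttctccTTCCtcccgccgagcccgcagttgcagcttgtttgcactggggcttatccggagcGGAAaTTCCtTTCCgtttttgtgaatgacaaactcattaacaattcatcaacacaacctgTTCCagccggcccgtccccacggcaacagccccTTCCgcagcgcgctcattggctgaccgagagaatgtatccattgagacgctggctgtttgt
Etv5, chr16:22439571-22439820, minus strand: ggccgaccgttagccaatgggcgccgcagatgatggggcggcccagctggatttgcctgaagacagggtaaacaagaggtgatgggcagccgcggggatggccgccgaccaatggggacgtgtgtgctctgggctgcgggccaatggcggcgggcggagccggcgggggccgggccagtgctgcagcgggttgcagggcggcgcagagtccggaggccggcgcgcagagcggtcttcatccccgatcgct
Counted on both strands in the 250 bases before the start, the core occurred 1 time at Spry1, 3 times at Spry2, 4 times at Il17rd, 6 times at Dusp6 and 4 times at Spred1. Etv5 has 2 annotated starts, with 0 cores before the first, shown above, and 4 before the second, which lies inside the gene and is not shown. Among 32851 such promoter windows 93.4% held the core, with a median of 3 and quartiles of 2 and 4. Dusp6 stood above the upper quartile, and Spry1 and the first Etv5 window stood below the lower one. The longer ETS site CCGGAA, searched on both strands as CCGGAA or TTCCGG and itself containing the core, occurred in 12.0% of all windows and in none of these 6 genes' windows. A match is a description of the letters and not of binding.

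The first question was whether each gene sloped along the tissue. Values are log2(signal + 16), so that a reading of 4 is a signal of 0 and differences of dim genes are understated. A straight line on the part number was fitted in limma over all genes, with Benjamini-Hochberg adjusted p-values called at 0.05. Il17rd, Spry4, Etv5, Dusp4, Etv4 and Spry2 fell, Spry1 rose, and Dusp6 and Spred1 were not called. Of all genes tested 11.1% fell and 8.12% rose. The median slope was -0.18 per part over the 9 genes and -0.0012 over all genes tested.

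**Figure D1:**
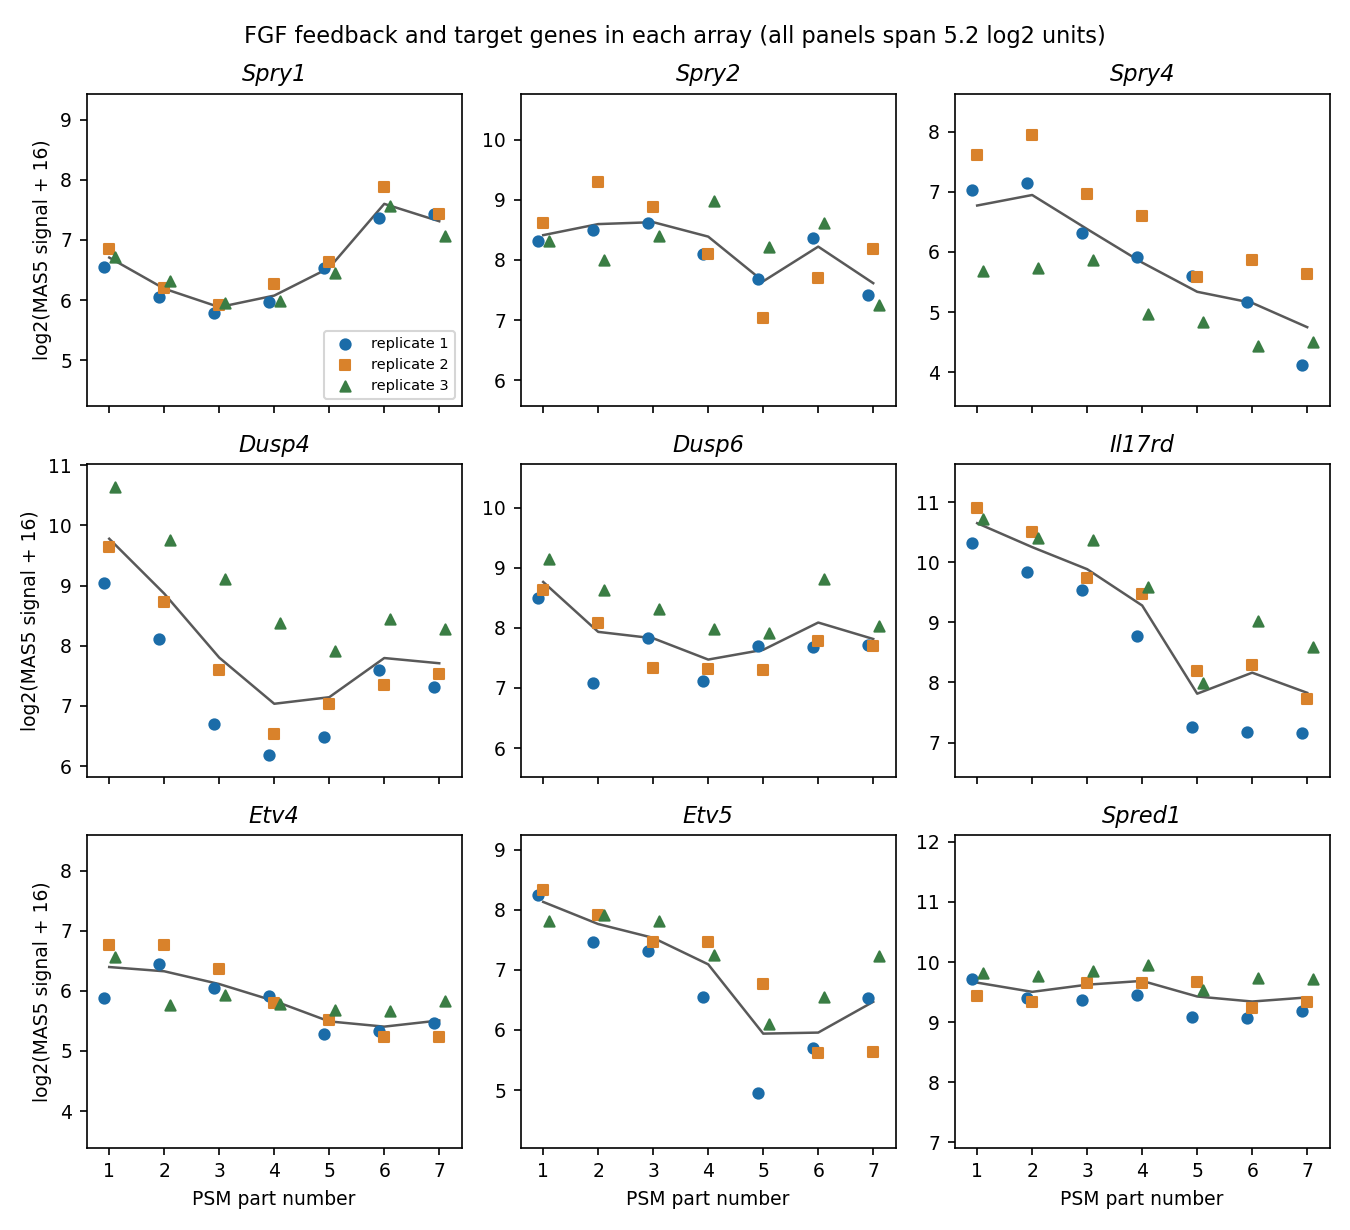
Level of each of the 9 genes on the y axis, as log2(signal + 16), against the part number from 1 to 7 on the x axis, with a point for each of 3 arrays per part, coloured by replicate number, and a line through the part means. Il17rd differs by -2.82 in part 7 minus part 1, Spry1 dips at part 3 and is highest in part 6, and Spred1 stays within a range of 0.34 over its part means.

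Among the inhibitors at the membrane, Il17rd had the steepest slope of the 9 genes, -0.53 ± 0.06 log2 units per part (SE, limma adjusted p = 4.88e-07). Replicates 1, 2 and 3 of Il17rd read 10.32, 10.90 and 10.72 in part 1, 9.84, 10.51 and 10.40 in part 2, 9.55, 9.74 and 10.36 in part 3 and 8.78, 9.47 and 9.59 in part 4. They read 7.26, 8.19 and 7.99 in part 5, 7.18, 8.29 and 9.02 in part 6 and 7.16, 7.73 and 8.60 in part 7. All arrays of parts 5 to 7 lay below all arrays of parts 1 and 2. In part 7 Il17rd averaged 7.83 ± 0.72, against 10.65 ± 0.29 in part 1 (SD, n = 3 each), a level 7.06-fold lower (difference -2.82 ± 0.40, SE, limma adjusted p = 6.16e-05). The call held with each replicate left out in turn. Its largest step was part 5 against part 4, with a mean difference of -1.47 that was not called by itself (limma adjusted p = 0.221). A second, dimmer probe set of Il17rd also fell, by 0.21 per part (limma adjusted p = 1.55e-05), with a difference of -1.12 in part 7 against part 1.

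Sprouty genes encode intracellular inhibitors of receptor tyrosine kinase signalling, and the 3 of them took different courses. Spry4 fell by 0.38 ± 0.07 per part (SE, limma adjusted p = 0.00033). Replicates 1, 2 and 3 of Spry4 read 7.03, 7.61 and 5.67 in part 1, 7.15, 7.95 and 5.74 in part 2, 6.31, 6.96 and 5.87 in part 3 and 5.91, 6.59 and 4.97 in part 4. They read 5.60, 5.57 and 4.84 in part 5, 5.16, 5.87 and 4.43 in part 6 and 4.12, 5.63 and 4.50 in part 7. In parts 1 to 6 replicate 3 was the lowest array. Replicates 1 and 3 of part 7 read 4.12 and 4.50, at signals of 1.33 and 6.66. These lay below the filter's cut of 13.3, as did replicate 3 of parts 5 and 6, at 12.6 and 5.53. In part 7 Spry4 averaged 4.75 ± 0.78, against 6.77 ± 0.99 in part 1 (SD, n = 3 each), and the arrays did not overlap. The level in part 7 was 4.06-fold lower (difference -2.02 ± 0.57, SE, limma adjusted p = 0.0226). That difference was not called without replicate 1 (limma adjusted p = 0.401) or without the single array of part 1, replicate 1 (0.0773), and the adjusted p ranged between 1.32e-05 and 0.401 over 16 alternatives. It was -3.42 with a pseudocount of 1, -1.09 with 64 and -1.08 for the mean of Spry4's probe sets, and the slope was -0.60, -0.21 and -0.20 under the same choices.

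Spry1 ran the other way and was not straight. Replicates 1, 2 and 3 of Spry1 read 6.55, 6.85 and 6.72 in part 1, 6.06, 6.20 and 6.31 in part 2, 5.79, 5.92 and 5.94 in part 3 and 5.97, 6.27 and 5.99 in part 4. They read 6.53, 6.63 and 6.45 in part 5, 7.36, 7.88 and 7.56 in part 6 and 7.43, 7.43 and 7.07 in part 7. All arrays of parts 6 and 7 stood above those of all other parts, and those of part 3 stood below those of part 4, their nearest neighbour. Spry1 rose by 0.19 ± 0.05 per part (SE, limma adjusted p = 0.0096), a call lost without replicate 1 (0.0891) or 2 (0.0552), with adjusted p between 0.0053 and 0.0891 over 15 alternatives. In part 7 Spry1 averaged 7.31 ± 0.21, against 6.71 ± 0.15 in part 1 (SD, n = 3 each), a level 1.52-fold higher (limma adjusted p = 0.0124). This call was lost without replicate 1 (0.232), replicate 2 (0.0953), or the single array of part 1, replicate 1 (0.0614), and in a fit of parts 1 and 7 alone (0.0733), with a range of 0.0029 to 0.232 over 16 alternatives.

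Spry2 had the shallowest slope of those called, -0.15 ± 0.05 per part (SE, limma adjusted p = 0.0356). Replicates 1, 2 and 3 of Spry2 read 8.31, 8.61 and 8.32 in part 1, 8.49, 9.29 and 8.001 in part 2, 8.61, 8.87 and 8.40 in part 3 and 8.09, 8.10 and 8.97 in part 4. They read 7.68, 7.04 and 8.21 in part 5, 8.36, 7.70 and 8.61 in part 6 and 7.41, 8.18 and 7.25 in part 7. Part 7 stood at 7.61 ± 0.50 and part 1 at 8.41 ± 0.17 (SD, n = 3 each), with no overlap, and the difference of -0.80 ± 0.34 (SE) was not called (limma adjusted p = 0.135). The slope was not called without replicate 1 (0.172) or 2 (0.202), with no filter (0.0518), with array weights (0.0642) or for the mean of the gene's probe sets (slope -0.062, 0.24), the highest of 15 alternatives, whose lowest was 0.0273. A second Spry2 probe set, with a mean signal of 10.2, had a slope of 0.023 (0.723). Spred1, a relative of Sprouty that binds Ras regulators, varied least: its part means spanned 0.34, its slope was -0.04 ± 0.03 (SE, limma adjusted p = 0.247), and its 3 arrays ran from 9.18 to 9.71 in part 7 and from 9.43 to 9.82 in part 1. Taken as the mean of its probe sets Spred1 was called, with adjusted p = 0.0371 in limma, within a range of 0.0371 to 0.704 over 15 alternatives.

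The dual-specificity phosphatases Dusp4, a nuclear enzyme, and Dusp6, a cytoplasmic one, both had their highest mean in part 1 and their lowest in part 4. Replicates 1, 2 and 3 of Dusp4 read 9.04, 9.65 and 10.64 in part 1, 8.11, 8.73 and 9.77 in part 2, 6.70, 7.60 and 9.10 in part 3 and 6.19, 6.54 and 8.38 in part 4. They read 6.48, 7.03 and 7.92 in part 5, 7.60, 7.34 and 8.45 in part 6 and 7.31, 7.54 and 8.28 in part 7. Replicate 3 was the highest Dusp4 array in all 7 parts. Replicates 1 and 2 were lowest in part 4 and replicate 3 in part 5. Part 7 averaged 7.71 ± 0.51 and part 1 averaged 9.78 ± 0.81 (SD, n = 3 each), without overlap, a level 4.2-fold lower (difference -2.07 ± 0.62, SE, limma adjusted p = 0.0305). The Dusp4 slope was -0.32 ± 0.10 (SE, limma adjusted p = 0.0233). The difference was not called without replicate 1 (0.0947) or 2 (0.243), and the slope was not called without replicate 2 (0.133) or 3 (0.0529). Over the alternatives their adjusted p ranged between 9.8e-07 and 0.243 and between 0.0023 and 0.133.

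Dusp6 averaged 7.81 ± 0.18 in part 7, 7.47 ± 0.45 in part 4 and 8.76 ± 0.34 in part 1 (SD, n = 3 each). Its low in part 4 was one of the mean only. Replicate 1 was lowest in part 2, at 7.09 against 7.12 in part 4. Replicates 2 and 3 were lowest in part 5, at 7.31 and 7.91 against 7.32 and 7.98 in part 4. Part 7 lay below part 1 with no overlap, yet neither the difference of -0.95 ± 0.36 (SE, limma adjusted p = 0.086) nor the slope of -0.10 ± 0.05 (SE, adjusted p = 0.237) was called. The difference was called in a fit of parts 1 and 7 alone (limma adjusted p = 0.0169). It was also called with a fixed (0.00266) or a random (0.0109) replicate block. Over all genes these blocks called 1486 and 1383 lower in part 7, against 885 without a block. The adjusted p of the Dusp6 difference lay between 0.00266 and 0.312 over 16 alternatives.

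Etv5 and Etv4, transcription factors of the PEA3 group of the ETS family, both fell. Replicates 1, 2 and 3 of Etv5 read 8.25, 8.32 and 7.81 in part 1, 7.46, 7.92 and 7.91 in part 2, 7.32, 7.46 and 7.81 in part 3 and 6.56, 7.47 and 7.25 in part 4. They read 4.96, 6.76 and 6.10 in part 5, 5.70, 5.62 and 6.55 in part 6 and 6.53, 5.64 and 7.23 in part 7. The 3 arrays of part 1 stood above every array of parts 4 to 7, while parts 5, 6 and 7 overlapped. Etv5 averaged 6.47 ± 0.80 in part 7 and 8.13 ± 0.28 in part 1 (SD, n = 3 each), 3.16-fold lower (difference -1.66 ± 0.40, SE, limma adjusted p = 0.0081), with a slope of -0.36 ± 0.06 (SE, adjusted p = 0.00011). Without replicate 1 (0.067) or 2 (0.15) the difference was not called, and its adjusted p over 16 alternatives was 0.0016 to 0.15. For the mean of its 3 probe sets the difference was -0.81 and the slope -0.18, and the 2 dimmer sets alone gave differences of -0.62 (adjusted p = 0.0209) and -0.15 (0.755). Etv4 arrays ran from 5.23 to 5.83 in part 7 and from 5.87 to 6.75 in part 1, without overlap. Etv4 was 1.85-fold lower in part 7 (difference -0.89 ± 0.25, SE, limma adjusted p = 0.0204) and fell by 0.18 ± 0.03 per part (SE, adjusted p = 0.00018). Its difference was not called without replicate 1 (0.071) or 2 (0.311) or in a fit of parts 1 and 7 alone (0.0675), within 0.0029 to 0.311 over 16 alternatives. The difference was -0.57 without replicate 2 and -0.51 with a pseudocount of 64, where the slope was -0.10. The slopes of Spry4, Il17rd, Etv4 and Etv5 were called under each of 15 alternatives that keep the gene's chosen probe set or average all of them. Single other probe sets were not all called: the Etv5 slope was -0.048 in one of 2 others (limma adjusted p = 0.323) and the Spry4 slope was -0.0048 in one of 3 others, which lay below the filter (0.864). Of 13 other probe sets of the 9 genes past the filter, 12 had a slope of the same sign as the one chosen, 6 were called with that sign and 0 with the other.

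Counting over the contrast of the ends, Il17rd, Dusp4, Spry4, Etv5 and Etv4 were lower in part 7 than in part 1, where 7.29% of all genes were called lower, and Spry1 was higher, where 6.1% were. All arrays of part 7 lay below all arrays of part 1 for 7 of the 9 genes, all but Spry1 and Spred1, against 14.7% of all genes, and above them for Spry1, against 14.4%. The log2 ratio between the 3' and 5' probes of actin, a sign of RNA degradation and amplification, had medians of 3.73 in part 7 and 2.63 in part 1, and its part in these differences was not tested. Within each replicate number, the slope of every one of the 9 genes kept the sign it had over all arrays, also for Dusp6 and Spred1, which were not called. The slope over all arrays is the mean of the 3 replicate slopes, so this agreement is partly built in. Its share over all genes was not counted. The replicate slopes ranged from -0.61 to -0.41 for Il17rd and from 0.14 to 0.21 for Spry1.

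A moderated F test over the 7 part means, which takes in patterns other than a line, called Spry1, Il17rd, Etv5, Etv4, Dusp4 and Spry4, where it called 13.4% of all genes. Spry1 had the lowest adjusted p of the 9 in this limma test (4.14e-07), followed by Il17rd (3.51e-05), and Spry2, Dusp6 and Spred1 were not called (0.145, 0.186 and 0.774). Ordered by mean level, Spry1 ran from part 6 through parts 7, 1, 5, 2 and 4 to part 3, and the neighbours 7 and 1, 5 and 2, and 4 and 3 did not overlap in their arrays. The last of these gaps was narrow, with a lowest array of 5.97 in part 4 and a highest of 5.94 in part 3. Such orders are sorted by the same values, and the share of gaps between neighbours over all genes was not counted. Il17rd ran from part 1 through 2, 3, 4, 6 and 7 to part 5, Etv5 from part 1 through 2, 3, 4, 7 and 6 to part 5, and Etv4 from part 1 through 2, 3, 4, 7 and 5 to part 6. Dusp4 ran from part 1 through 2, 3, 6, 7 and 5 to part 4, and Dusp6 from part 1 through 6, 2, 3, 7 and 5 to part 4. Spry4 ran from part 2 through 1, 3, 4, 5 and 6 to part 7, Spry2 from part 3 through 2, 1, 4, 6 and 5 to part 7, and Spred1 from part 4 through 1, 3, 2, 5 and 7 to part 6. Apart from Etv4 in parts 3 and 4, neighbours in the orders of these 8 genes overlapped. Over the 6 steps between consecutive parts 0.277% of all pairs of a gene and a step were called, and 1 pair among the 9 genes. It was Spry1 in part 6 against part 5, with a difference of 1.06 ± 0.16 (SE, limma adjusted p = 0.00264, 2.09-fold higher in part 6), where 0.379% of all genes were called higher. With any 1 replicate number left out, limma called no step of the 9 genes, and over all genes it called 45 to 85 steps, against 202 with all arrays.

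Pairs of parts were then compared over 2 stretches, from parts 1 and 2 to parts 3 and 4 and from there to parts 6 and 7. Part 5 was left out of both. These pairs were chosen after the same values had been seen, so their p-values are a description and no independent support. In parts 3 and 4 together, Dusp4 was lower than in parts 1 and 2 (difference -1.90 ± 0.44, SE, limma adjusted p = 0.0142) and Spry1 was lower (difference -0.47 ± 0.11, adjusted p = 0.0168), where 2.27% of all genes were called lower, and no gene of the 9 was called higher, where 1.64% of all were. Neither call held with each replicate left out in turn. Leaving out replicate 1 or 2, but not 3, ended the Dusp4 call (limma adjusted p of 0.121 and 0.39, within 9.69e-08 to 0.39 over 15 alternatives). Leaving out any replicate ended that of Spry1 (adjusted p of 0.135, 0.177 and 0.166, within 0.0034 to 0.177). In parts 6 and 7, Il17rd was lower than in parts 3 and 4 (difference -1.59 ± 0.28, SE, limma adjusted p = 0.00073) and Etv5 was lower as well (difference -1.10 ± 0.28, SE, adjusted p = 0.0169), where 4.51% of all genes were called lower. For Il17rd and Etv5 the step from part 4 to part 5 was -1.47 and -1.15, and that from part 5 to part 6 was 0.35 and 0.017. No such single step of these genes was called. From parts 3 and 4 to parts 6 and 7 Spry1 was 2.78-fold higher (difference 1.48 ± 0.11, SE, limma adjusted p = 1.79e-08), where 4.27% were called higher, and this was called under each of 15 alternatives. Dusp4 differed by 0.33 ± 0.44 there (adjusted p = 0.772). Il17rd was not called without replicate 2 (0.0583, within 1.42e-07 to 0.0583), nor Etv5 without replicate 1 (0.0589) or 2 (0.252, within 0.0038 to 0.252). For the mean of probe sets these differences were -1.05 for Il17rd and -0.55 for Etv5, that of Etv5 was -0.73 without replicate 2, and the first difference of Spry1 was -0.29 with a pseudocount of 64.

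**Figure D2:**
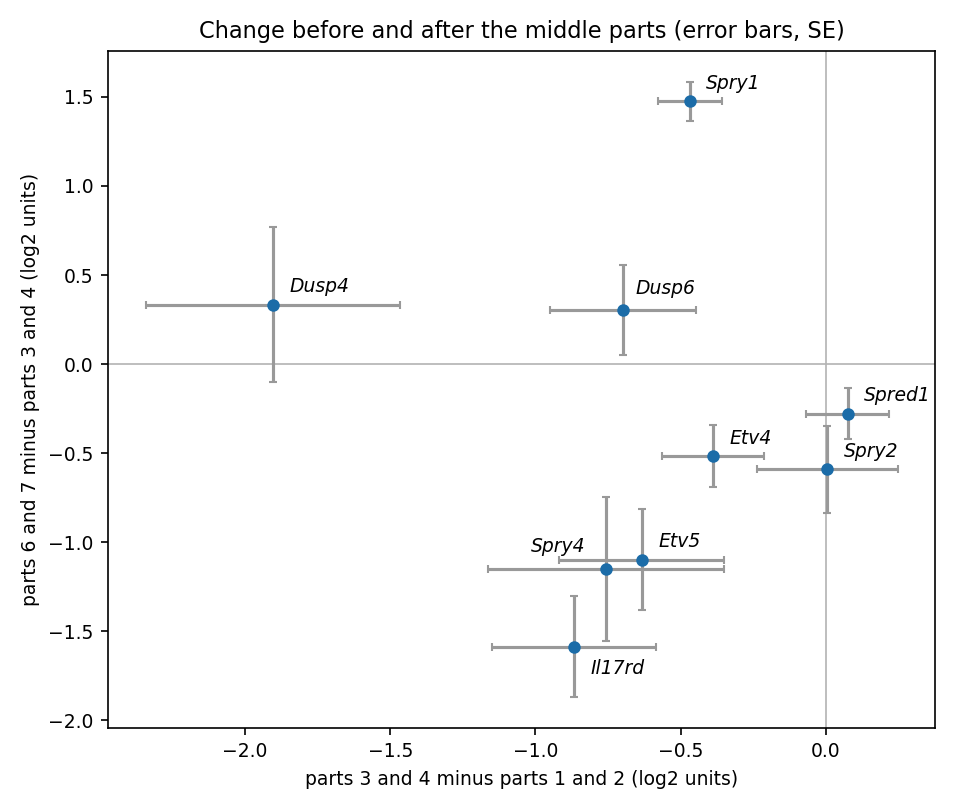
Difference of parts 6 and 7 minus parts 3 and 4 on the y axis against parts 3 and 4 minus parts 1 and 2 on the x axis, both in log2 units, with bars of 1 standard error and a point per gene. Dusp4 lies far to the left at -1.90 and near 0 on the y axis at 0.33, Il17rd lies lowest at -1.59, and Spry1 lies at -0.47 and 1.48.

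Relatives were compared directly by the slope of their difference within each array, over 5 pairs, with a two-sided permutation test of 100000 resamples over the 21 arrays and adjustment over the pairs. The slope of Spry1 exceeded that of Spry4 by 0.57 per part (adjusted p = 0.0002, permutation; 0.35 at a pseudocount of 64) and that of Spry2 by 0.34 (adjusted p = 0.00192, permutation). The slope of Spry2 exceeded that of Spry4 by 0.23 (adjusted p = 0.0132, permutation). Dusp4 had a slope lower than Dusp6 by 0.22 and Etv5 had one lower than Etv4 by 0.18 (adjusted p = 0.00845 for each, permutation). Each of the 5 differences had 1 sign in all 3 replicate numbers. Each is the mean of its 3 replicate values, so this agreement is partly built in, and its share among other gene pairs was not counted. The Spry2 and Spry4 difference depended on the scale, with 0.44 at a pseudocount of 1, 0.089 at 64 (adjusted p = 0.128, permutation) and 0.14 for the mean of probe sets, and was not called without replicate 1 (0.168), within 0.0014 to 0.168 over 9 alternatives. That of Etv4 and Etv5 was 0.032 for the mean of the probe sets (adjusted p = 0.28, permutation) and missed the threshold without replicate 2 (0.054), as did that of Dusp4 and Dusp6 (0.054), within 0.0014 to 0.28 and 0.00259 to 0.054.

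Arrays of a part spread more widely for most of these genes than the value of limma's variance trend at their level. How that ratio is distributed over all genes was not counted. The residual SD within a part was 0.87 for Dusp4, 0.80 for Spry4, 0.56 for Il17rd, 0.56 for Etv5, 0.49 for Dusp6 and 0.47 for Spry2, and these were 4.02, 3.18, 3.01, 2.33, 2.25 and 2.24 times the value of limma's trend at their mean level. Spred1 had 0.27, Etv4 0.32 and Spry1 0.17, which were 1.53, 1.26 and 0.681 times the trend. Among all genes tested, of any level, Dusp4 stood at the 99.5th percentile of this SD, Etv4 at the 76.5th, Spred1 at the 60.9th and Spry1 at the 17.8th.

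**Figure D3:**
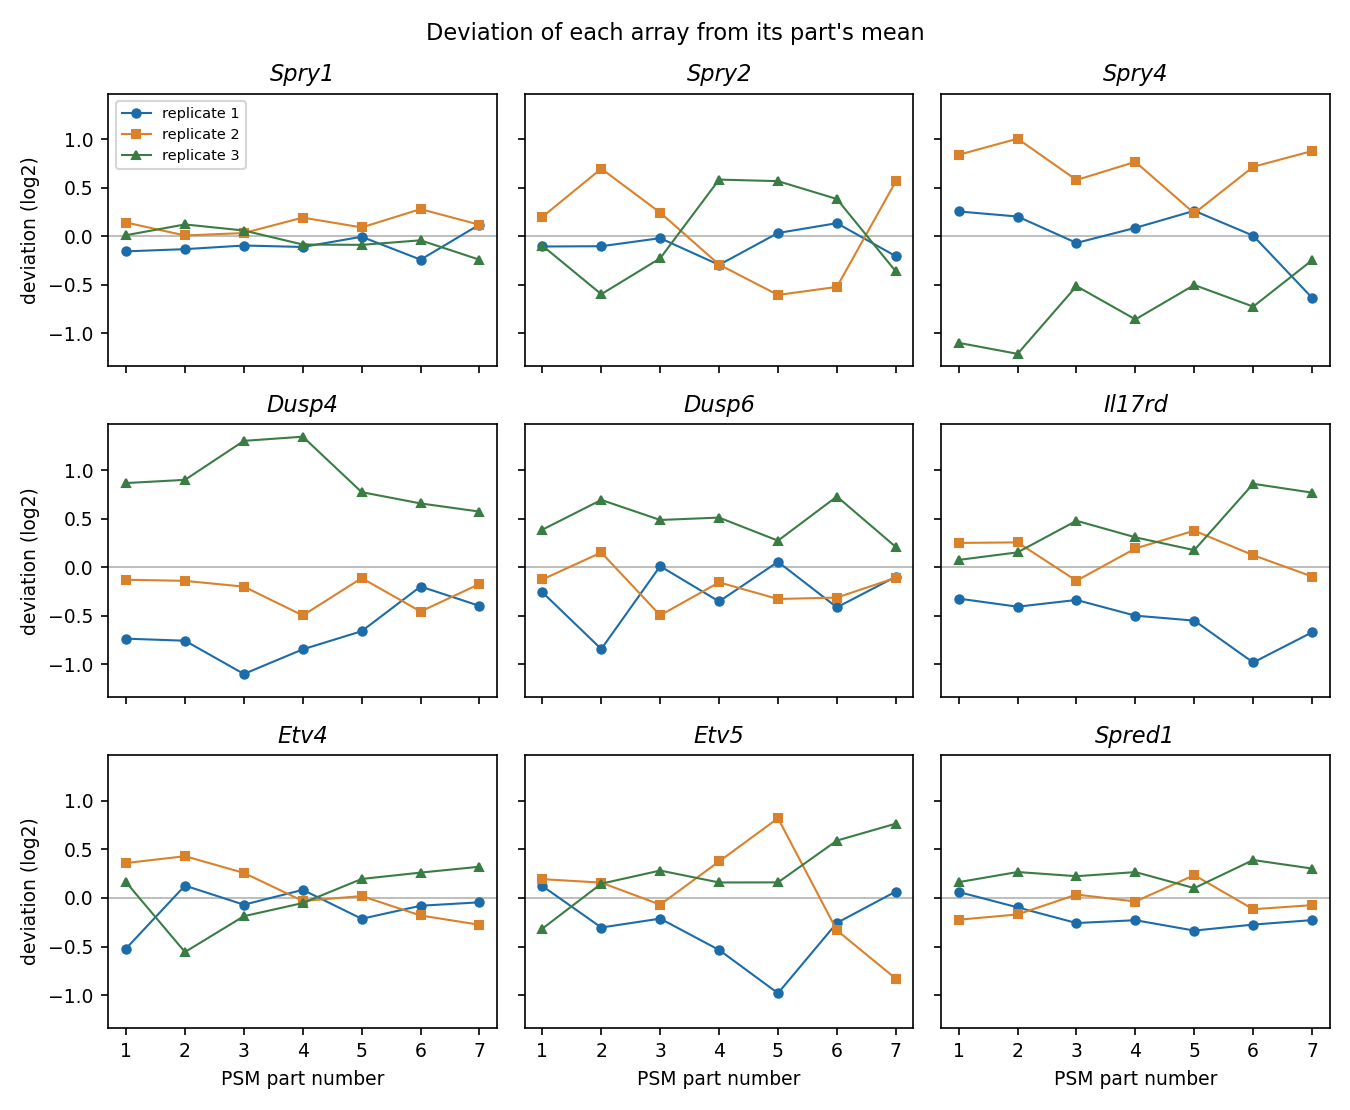
Deviation of each array from its part mean on the y axis, in log2 units, for each gene against the part number on the x axis, coloured by replicate number. Replicate 3 is the highest array for Dusp4 and Dusp6 in all 7 parts and the lowest for Spry4 in 6 of 7, while the Spry2 replicates cross.

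Part of this spread followed the replicate number. Averaged over parts, Spry4 read 5.90, 6.60 and 5.14 in replicates 1, 2 and 3, while Dusp4 read 7.35, 7.77 and 8.93. Replicate 3 was the highest array for Dusp4 and Dusp6 in all 7 parts, where 6.97% of all genes had that pattern. Il17rd was lowest in replicate 1 in all 7, a pattern whose share over all genes was not counted. A limma F test over the replicate numbers called 5 of the 9 genes, where it called 33.2% of all genes. Spry2 showed no such offset: replicate 2 stood above replicate 3 in parts 1, 2, 3 and 7 and below it in parts 4, 5 and 6. The actin 3' to 5' log2 ratio had medians of 4.01, 3.73 and 3.15 in replicates 1, 2 and 3, and the Gapdh ratio 3.80, 3.64 and 2.94. Across the 21 arrays the deviations from the part mean had a Pearson r with those of the Gapdh ratio of 0.75 for Spry4, -0.77 for Dusp4, -0.67 for Dusp6 and -0.68 for Spred1, and of 0.064 for Spry2 and -0.0013 for Spry1. The part of RNA quality in these offsets was not tested. Different probe sets of Spred1 placed replicate 3 at opposite ends, highest in 6 parts for the brightest and lowest in 6 for the third brightest.

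Deviations of the genes from their part means also moved with each other, as a description over 21 arrays that share replicate number and RNA quality. Pearson r was 0.78 for Dusp4 with Dusp6, 0.77 for Dusp4 with Spred1, 0.77 for Il17rd with Spred1 and 0.68 for Il17rd with Etv5, and it was -0.65 for Spry4 with Dusp4 and with Dusp6. Over the levels themselves, which also share the course along the parts, Il17rd and Etv5 had r = 0.91 and Dusp4 and Dusp6 r = 0.84. The genes closest to each were Igf1r and Trps1 for Il17rd (r = 0.93 each), Ccng1 and Dixdc1 for Etv5 (0.95 and 0.92), Chd3 and Dennd11 for Etv4 (0.92 each), and Oxct1 and Fzd10 for Spry4 (0.94 and 0.91). For Dusp4 they were Gen1 and Klhl5 (0.94 and 0.93), for Dusp6 Casp9 and Igfbp3 (0.87 and 0.86), for Spred1 Hmga2 and Bcap29 (0.92 and 0.87), for Spry2 Usp53 and Mkrn2 (0.76 and 0.75) and for Spry1 Tmem170b and Foxd1 (0.93 and 0.90). The closest of the other 8 genes to Spry1 was Dusp6, with r = 0.22.

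Other genes of the pathway were read from lists of 76 names, of which 61 were tested and 8 lay below the filter. Of the 61, 15 fell, 6 rose and 40 were not called, against 11.1% falling and 8.12% rising among all genes tested. Of 7 FGF ligands 6 fell and 1 rose, with a median slope of -0.52: Fgf15, Fgf3 and Fgf17 fell by 0.64, 0.63 and 0.61 per part, Fgf4 by 0.52 (limma adjusted p = 6.3e-06) and Fgf8 by 0.28 (4.04e-05), while Fgf18 rose by 0.93 (3.03e-06). Of 9 receptors and receptor inhibitors none fell and 2 rose, Fgfr2 by 0.51 ± 0.05 and Fgfr1 by 0.23 ± 0.05 (SE). In the Ras and ERK cascade 2 of 16 fell and 1 rose, near the shares among all genes, with Cbl, an adaptor that marks receptors for removal, falling by 0.09, the phosphatase Ptpn11 falling by 0.08 and the GTPase Nras rising by 0.06.

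Among 13 other Sprouty, Spred, Dusp and Etv genes 4 fell and none rose. Spred2 averaged 8.16 ± 0.19 in part 7 and 9.31 ± 0.33 in part 1 (SD, n = 3 each) and fell by 0.22 per part (limma adjusted p = 0.0003). Etv6 fell by 0.14, Dusp14 by 0.12 and Etv2 by 0.09. Of 16 other transcriptional targets of ERK, 3 fell and 2 rose, with Snai1 falling by 0.20, Ier5 falling by 0.13, Phlda1 rising by 0.15 and Mycn rising by 0.10. The median slope of these 2 lists was -0.02 and -0.04, against -0.18 for the 9 genes. Without replicate 2 the falling genes over all lists numbered 9, and those among all genes tested numbered 833, against 1344 with all arrays.

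**Figure D4:**
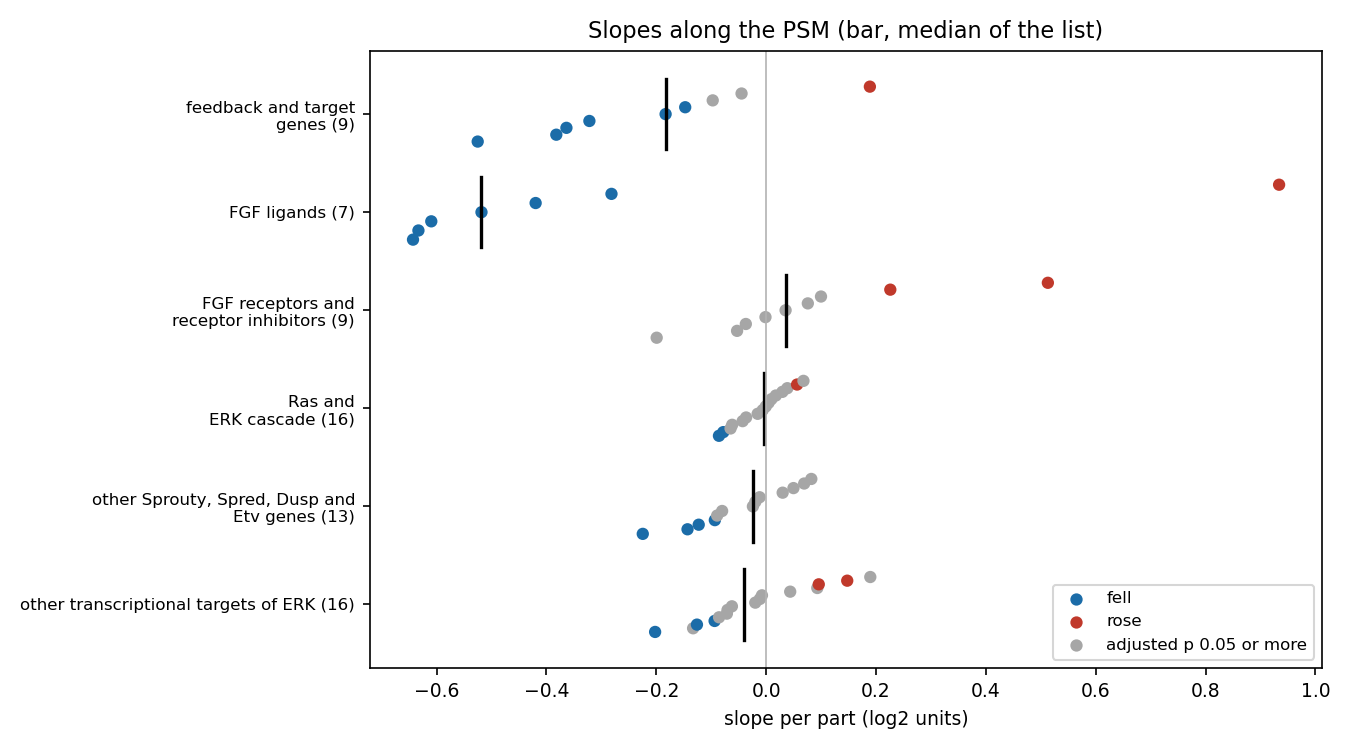
Slope per part in log2 units on the x axis for every tested gene of the 9 and of the 5 pathway lists, with a row per list on the y axis with colour for genes that fell or rose at an adjusted p under 0.05, grey for the others, and a bar at each list's median. The ligands run from -0.64 to 0.93, the cascade genes stay near 0, and the 9 feedback genes run from -0.53 to 0.19.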

How the data were processed

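The authors hybridised biotin-labelled cRNA from 2 rounds of amplification, per the labels' protocols, and deposited one table of signal intensity per probe set for 21 arrays, made with MAS5 per the submitters' processing notes. Its version and target signal were not given in the sources used here. Of 45101 probe sets, 64 controls, 9160 without a symbol and 932 with several were left out. Of the 34945 others 34741 were named through the RefSeq gene table (GRCm38.p6), and each of 18193 genes was read from its probe set with the highest mean of log2(intensity + 16). Genes above the table's median of 13.3 in at least 3 arrays entered the test (12141). Lines on the part number (19 residual degrees of freedom), part means and contrasts (14) were fitted in limma 3.58.1 with a variance trend (R 4.3.3), with Benjamini-Hochberg adjustment over all tested genes at 0.05. Scripts were tested on simulated data. Groups came from the labels' part numbers.

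All 9 genes were named in each comparison, as were up to 4 called genes with the steepest slopes of each pathway list, Fgf8, Fgf4, Fgfr1, and the 2 genes most correlated with each of the 9. The genes and lists were chosen with earlier results of these data known. Fits without the array of part 1, replicate 1, the 2 stretches and the test over replicate numbers were added after seeing the data. Other alternatives changed the pseudocount (1, 64), filter, normalization, variance trend, array weights, choice of probe set, replicate block and the replicates kept.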

Additional observations from a re-analysis of the deposited data

How the results depend on the processing

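Alternatives were run 212 times on counts and slope differences, of which 179 were kept. A count was kept if it stayed within 1.5 times, and a slope difference if it held its sign and its side of the threshold. Alternatives were run 579 times on single values, of which 518 kept their call, 36 lost it, 24 gained one and 1 turned sign. That one was the slope of the second Spry2 probe set, 0.023 against -0.15 for the first. Of the 9 genes, those lower in parts 6 and 7 than in parts 3 and 4 (2) numbered 4 with array weights, 4 for the mean of probe sets, 5 with a fixed and 4 with a random replicate block. With these blocks the called steps between neighbouring parts (1) numbered 5 and 3, and the genes lower in parts 3 and 4 than in parts 1 and 2 (2) numbered 5 and 4. Over all genes the fixed and random blocks called more too, with 785 and 642 steps against 202 without a block, 946 and 878 genes lower in parts 6 and 7 against 548, and 525 and 481 lower in parts 3 and 4 against 276. The genes added by the fixed block were Il17rd, Dusp6 and Spry4 in parts 3 and 4 (limma adjusted p of 0.000618, 0.0049 and 0.015) and Spry4, Spred1 and Etv4 in parts 6 and 7 (0.000182, 0.0332 and 0.0464). With a fixed block Dusp6 was called lower in part 7 than in part 1 (limma adjusted p = 0.00266). Over all genes that contrast called 1486 lower with the fixed block, against 885 without it. Falling slopes over all genes numbered 1669 with it, against 1344. None of the 9 genes was called higher in part 7 in a limma fit of parts 1 and 7 alone (adjusted p = 0.0733 for Spry1). The slope difference of Spry2 and Spry4 was 0.089 with a pseudocount of 64, and that of Etv4 and Etv5 was 0.032 for the mean of probe sets. Leaving out arrays gave 4 to 6 falling and 0 to 1 rising slopes, 2 to 7 genes that differ between parts, 1 to 5 lower and 0 to 1 higher in part 7, 0 to 1 steps, 0 to 2 genes lower in parts 3 and 4, 0 to 4 lower in parts 6 and 7, and 9 to 15 falling and 4 to 5 rising pathway genes. Counts over all genes moved too: falling slopes numbered 818 to 1173 against 1344, and genes that differ between parts 608 to 1497 against 1627. Genes lower in part 7 numbered 378 to 816 against 885, and called steps 45 to 304 against 202. Those lower in parts 3 and 4 numbered 73 to 342 against 276, and in parts 6 and 7 they numbered 255 to 565 against 548. Leaving out a replicate number gave slope differences of 0.18 to 0.26 for Spry2 and Spry4, -0.25 to -0.20 for Dusp4 and Dusp6, and 0.15 to 0.21 for Etv4 and Etv5. Same-numbered arrays of different parts had deviations with r of 0.03 to 0.68, above 0.1 in 55 of 63 pairs, and 20 of 21 arrays correlated best with their own number, which is a hint from the data and not from the design. Signal near background limits Spry4, whose lowest array read 4.12, and only 3 arrays a part limit every contrast.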

Other observations

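A test over the 3 replicate numbers, added after their offsets were seen, called 33.2% of all genes and 5 of the 9 genes: Dusp4 (limma adjusted p = 4.29e-07), Spry4 (1.48e-05), Il17rd (8.34e-05), Dusp6 (0.000545) and Spred1 (0.000844). Spry1, Etv5, Etv4 and Spry2 were not called (0.15, 0.151, 0.611 and 0.877). The direction of an offset was not shared: replicate 3 averaged 0.92 above the part means for Dusp4 and 0.47 above for Dusp6, while Spry4 had -0.73 there. A second Spry4 probe set had replicate 3 lowest in 3 of 7 parts, against 6 for the brightest.

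Deviations from the part means were set beside those of 19 genes known to cycle in the mouse presomitic mesoderm, a list written after the Spry2 replicates were seen to cross. For Spry2 Pearson r ran from -0.35 (Bcl9l) to 0.61 (Axin2) over 21 arrays, with 6 of 19 below 0. For Dusp4 it ran from -0.83 (Tnfrsf19, a Wnt target) to 0.90 (Hes1, a Notch target), and for Spry4 from -0.51 (Hes1) to 0.79 (Tnfrsf19). These arrays share replicate number and RNA quality, and the share of either in these values was not tested.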
